A study of Sus scrofa with 34 samples.

Results

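The peroxisome proliferator-activated receptors (PPARs), their retinoid X receptor (RXR) partners and the proteins that switch them on or off were followed at the transcript level in piglet liver and ileum. The 10 genes were chosen by symbol, with no threshold on their values, and all 10 were found among the 25880 genes counted: PPARA, PPARD, PPARG, RXRA, RXRB, PPARGC1A, PPARGC1B, NCOR1, NCOA1 and HNF4A. The libraries came from weaned crossbred piglets that received a basal diet (control), the same diet with a phytogenic feed additive based on essential oils (PFA), the diet with oxidized rapeseed oil (OO), or both (OO + PFA), and were sampled at day 28. Liver was measured in 6 pigs per diet, and ileum in 5 control and 5 PFA pigs, each of which also gave a liver library. Each diet was fed in a single pen, so that pen and diet cannot be told apart, and the oxidized oil took the place of other ingredients, so that the OO diets also differed in fat from the control diet. Both tissues were measured in bulk, and fewer cells of a type and less RNA per cell cannot be told apart.

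PPARs are nuclear receptors that are activated by fatty acids and their derivatives and bind DNA as heterodimers with an RXR. In the liver PPAR-alpha is known as the main driver of fatty acid oxidation genes during fasting and high fat intake, PPAR-delta is found in most tissues including the gut epithelium, and PPAR-gamma is known as the regulator of fat cell differentiation. Without ligand the receptors are held in check by corepressors such as NCOR1, and with ligand they recruit coactivators such as NCOA1 and the PGC-1 proteins, encoded by PPARGC1A and PPARGC1B. HNF4A is a nuclear receptor that maintains the identity of hepatocytes and of intestinal epithelium and shares targets with PPAR-alpha.

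The receptors are paralogs, and the last 90 coding bases of each, which encode the end of the ligand-binding domain, are shown because they bear on whether reads can be told apart between family members. The sequences are those of the RefSeq models on Sscrofa11.1, 5′ to 3′ on the coding strand, each within 1 coding exon and with the stop codon in capitals. They lie at chr5:3302755-3302844 (minus strand) for PPARA, chr7:31293389-31293478 (plus) for PPARD, chr13:68433649-68433738 (plus) for PPARG, chr1:273794097-273794186 (plus) for RXRA and chr7:25237131-25237220 (minus) for RXRB.
PPARA: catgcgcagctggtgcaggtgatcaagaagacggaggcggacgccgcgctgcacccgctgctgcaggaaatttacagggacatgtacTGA
PPARD: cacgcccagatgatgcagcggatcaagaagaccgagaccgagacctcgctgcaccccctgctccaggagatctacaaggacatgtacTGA
PPARG: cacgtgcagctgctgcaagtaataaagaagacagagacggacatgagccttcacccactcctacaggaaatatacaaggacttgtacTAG
RXRA: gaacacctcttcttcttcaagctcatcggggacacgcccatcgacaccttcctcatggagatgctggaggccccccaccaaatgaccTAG
RXRB: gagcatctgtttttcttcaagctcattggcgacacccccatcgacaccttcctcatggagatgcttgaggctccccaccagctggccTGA

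Over these bases PPARA and PPARD were identical at 81.1% of positions, PPARA and PPARG at 74.4%, and RXRA and RXRB at 84.4%. Over whole exon sequences the longest run shared by RXRA and RXRB was 29 bases and the longest shared by PPARA and PPARD was 23 bases, which is shorter than the sequenced reads. The GC content of the printed stretch was 60.0% in PPARA and 46.7% in PPARG. Over all exons the members spanned from 43.5% GC in PPARGC1A (chr8:17841844-18527953) to 65.2% in RXRA (chr1:273698842-273797622), with NCOA1 (chr3:113997214-114251080) at 44.9%, PPARG (chr13:68301566-68433951) at 47.6%, PPARA (chr5:3302755-3321091) at 54.6%, HNF4A (chr17:46783772-46847505) at 57.0%, RXRB (chr7:25236005-25242842) at 60.6%, NCOR1 (chr12:59256868-59392564) at 60.6%, PPARD (chr7:31222533-31295221) at 61.2% and PPARGC1B (chr2:150823338-150924871) at 62.3%. In the RefSeq annotation NCOR1 overlaps the end of PIGL, PPARGC1B holds the microRNA gene MIR378-1, and PPARGC1A and HNF4A overlap uncharacterized long non-coding RNAs; the strand setting of the counting was not given in the sources used here, so reads of these neighbours may be included.

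Between 18738055 and 42446834 read pairs per library were counted on genes. One OO + PFA liver library, from pig 77, was left out by the study for suspected RNA degradation and is left out here unless stated. All 8 hepatocyte markers were detected in every liver library and all 8 enterocyte markers in every ileum library. The lists did not separate the tissues fully. In every control ileum library 3 of the 8 hepatocyte markers were detected, and in every control liver library 4 of the 8 enterocyte markers. ALB had at most 5 counts in ileum, but APOA1, also a hepatocyte marker, had 23467 to 91923 in control ileum. FABP2 had at most 2 counts in the liver, but VIL1, also an enterocyte marker, had 58 to 1140 in control liver. The liver libraries differed in how expression scaled with GC content: the slope of log2 CPM (CPM are read counts over the library size, scaled by TMM) on GC content, relative to the mean of the libraries, was -0.20 to 0.08 log2 units per 10 percentage points of GC in control, -0.47 to 0.07 in PFA, -0.38 to 0.42 in OO and 0.04 to 0.49 in OO + PFA. The ranges of the 4 diets overlapped, and the slope was above 0 in all 5 OO + PFA libraries. Values corrected for GC content are given beside the members that tracked the slope; whether the slope arose in the tissue or in the handling of the RNA was not tested.

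In the liver of control pigs HNF4A had the highest level per length of the 10 genes, with 248 CPM per kilobase of coding sequence, followed by RXRA with 60.1, PPARD with 17.5, PPARA with 16.9, PPARGC1A with 9.95, RXRB with 9.43, NCOA1 with 7.21, NCOR1 with 4.97, PPARGC1B with 0.304 and PPARG with 0.161 CPM per kilobase. PPARD, PPARA, PPARGC1A and RXRB overlapped with their neighbours in this order between pigs, as did PPARGC1B and PPARG. On this scale HNF4A and RXRA stood above all other members, and the pair at the bottom below all others, in each of the 6 pigs. Coding length leaves out untranslated exons, whose reads may be counted, so the order depends on the length used. Per kilobase of RefSeq exon HNF4A stayed first, PPARA took the second place at 16.9, and RXRA had 9.17 and PPARGC1A 1.53. The RefSeq model of PPARA holds coding sequence alone, which may inflate its value on the exon scale. The lengths of the Ensembl models used for counting were not checked. In the ileum of control pigs HNF4A was again first with 262 CPM per kilobase of coding sequence, PPARD was second with 64.2, and PPARGC1B with 3.61 and PPARG with 1.91 were last. The second place did not hold between pigs, with PPARD down to 26.7 and NCOA1, the next, up to 37.4. PPARGC1B, down to 1.88, overlapped with PPARG, up to 2.21.

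**Figure D1:**
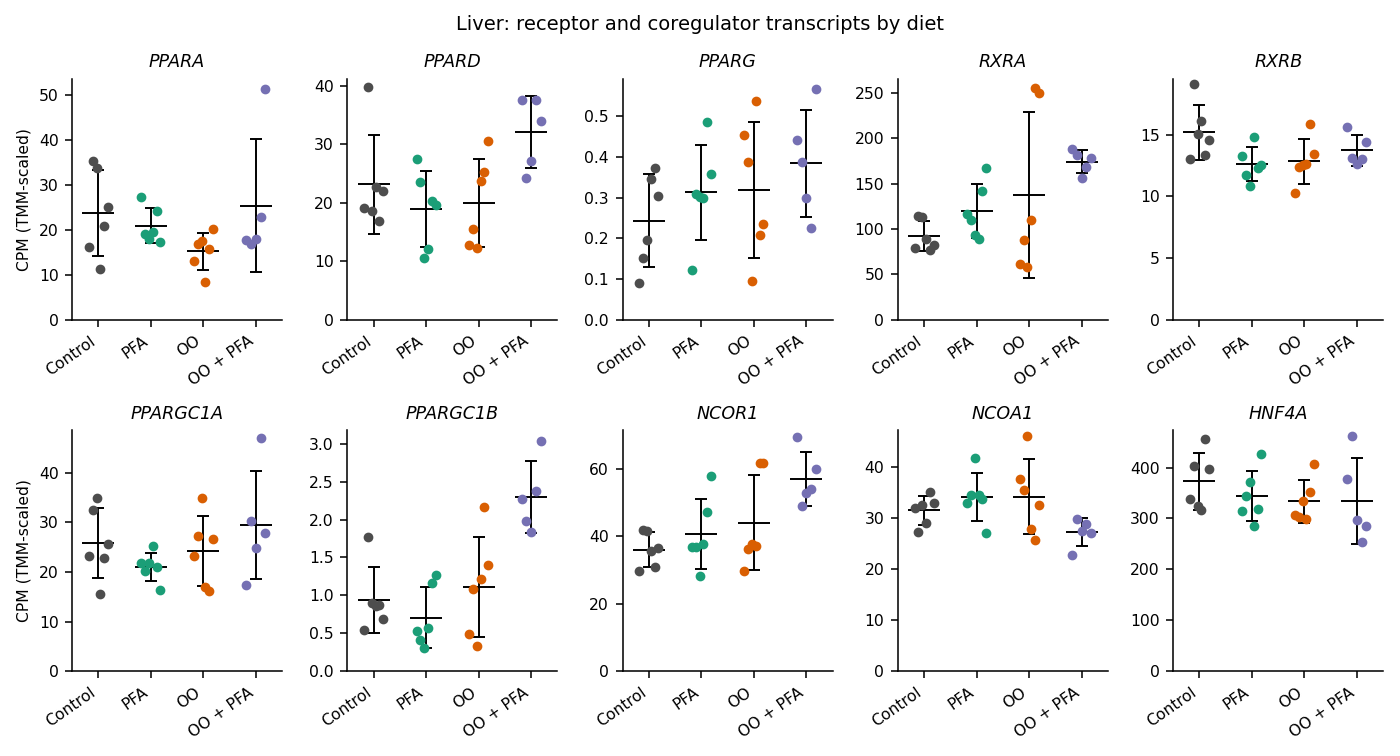
CPM in the liver of each member by diet, on linear axes from 0; points are pigs, horizontal bars are means and whiskers are SDs (n = 6, and n = 5 in OO + PFA). RXRA, NCOR1 and PPARGC1B are higher in each of the 5 OO + PFA pigs than in any control pig, and RXRA in OO spans 58.3 to 255 CPM. The values shown are not corrected for GC content, and with the correction these genes overlap between OO + PFA and control.

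PPARA, the receptor whose targets dominate hepatic fatty acid oxidation, had a lowest, median and highest level of 11.3, 23.04 and 35.4 CPM in control liver and of 8.34, 16.2 and 20.2 CPM in OO liver. The groups overlapped, and the mean was 23.8 ± 9.61 CPM (SD, n = 6) in control and 15.3 ± 4.13 CPM in OO. The log2 fold change in OO against control was -0.64 (95% interval -1.23 to -0.05), with an adjusted p of 0.196 in edgeR's quasi-likelihood test over 13831 genes, which did not pass the threshold of 0.05. In PFA liver PPARA lay between 17.4 and 27.4 CPM with a median of 19.4. In OO + PFA liver it was 16.9, 17.7, 17.9, 22.9 and 51.5 CPM, so that 4 pigs lay within the control range and 1 above it. The log2 fold change of OO + PFA against control was 0.09 (interval -0.52 to 0.70) with all 5 pigs and -0.34 without the highest of them.

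PPARD was 16.8, 20.5 and 39.8 CPM (lowest, median, highest) in control liver, 10.6, 19.98 and 27.5 CPM in PFA and 12.3, 19.6 and 30.5 CPM in OO. The OO + PFA pigs had 24.2, 27.1, 34.0, 37.6 and 37.6 CPM, which overlapped with the control range through control pig 80. The log2 fold change of OO + PFA was 0.47 (interval -0.08 to 1.03) against control, 0.76 (0.20 to 1.31) against PFA and 0.69 (0.13 to 1.24) against OO, with edgeR adjusted p of 0.313, 0.122 and 0.508. After the GC correction these values were 0.05 (interval -0.32 to 0.43), 0.32 (-0.06 to 0.69) and 0.53 (0.15 to 0.90), and OO against control went from -0.21 to -0.47 (interval -0.83 to -0.11, edgeR adjusted p = 0.0926). PPARG was near the limit of counting in the liver, with 2 to 15 counts per library and 0.0896 to 0.568 CPM over the 23 pigs. Its log2 fold changes against control were 0.36 in OO, 0.32 in PFA and 0.63 in OO + PFA, with intervals that each included 0. PLIN1, a lipid droplet protein among the fat cell markers, had 12 to 72 counts in control, 27 to 75 in PFA, 40 to 167 in OO and 92 to 125 in OO + PFA liver. The defining markers ADIPOQ and LEP had at most 3 and 0 counts in liver. The part of fat cells in the PPARG values was not tested.

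RXRA, the partner of the PPARs and of many other nuclear receptors, was 76.6, 85.9 and 114 CPM (lowest, median, highest) in control liver and 89.4, 113 and 167 CPM in PFA liver. In OO liver the 6 pigs had 58.3, 61.5, 87.4, 109, 250 and 255 CPM, which gave the widest spread of any diet (SD 91.5). In OO + PFA liver the 5 pigs had 156, 168, 178, 181 and 188 CPM. All 5 lay above all 6 control pigs, while the OO pigs lay on both sides of them. The log2 fold change of OO + PFA against control was 0.91 (SE 0.30, interval 0.28 to 1.54) with an edgeR adjusted p of 0.0748, and it passed the threshold with DESeq2 (adjusted p = 0.0440) and in an edgeR fit of these 2 diets alone (adjusted p = 0.000595). After correction for GC content it was 0.07 (interval -0.22 to 0.36), with 114 to 162 CPM in control and 117 to 164 CPM in OO + PFA on the corrected scale.

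RXRB, the paralog of RXRA, was 13, 14.8 and 19.1 CPM (lowest, median, highest) in control, 10.8, 12.5 and 14.8 CPM in PFA and 10.2, 12.6 and 15.8 CPM in OO. The OO + PFA pigs had 12.6, 12.98, 13.1, 14.4 and 15.6 CPM, and all groups overlapped with control. The log2 fold change was -0.24 (interval -0.48 to -0.005) in OO and -0.14 (-0.40 to 0.11) in OO + PFA, with edgeR adjusted p of 0.226 and 0.530. After the GC correction RXRB was lower in both diets with oxidized oil, by a log2 fold change of -0.40 (SE 0.12, adjusted p = 0.0438) in OO and of -0.52 (SE 0.13, adjusted p = 0.0181) in OO + PFA, by edgeR over 11025 genes, of which 7.92% and 7.1% passed in these contrasts. On that scale the 5 OO + PFA pigs (13.1 to 15.1 CPM) lay below the 6 control pigs (19.1 to 22.4 CPM). The share of all genes whose groups did not overlap on that scale is not given here. Calls among the 11025 genes moved downwards with the correction. In OO + PFA against control 478 of 604 called genes rose without it, and 455 of 783 fell with it. In OO against control 162 of 333 called genes fell without it, and 599 of 873 with it.

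HNF4A, the most abundant member, was 317, 368 and 457 CPM (lowest, median, highest) in control, 286, 332 and 426 CPM in PFA and 298, 320 and 407 CPM in OO. With both additions it was 254, 285, 297, 377 and 463 CPM. The 4 diets overlapped, and the fold changes against control were all between -0.16 and -0.12 on the log2 scale, with a widest interval of -0.46 to 0.15.

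PPARGC1A, the fasting-inducible PGC-1 coactivator, was 15.6, 24.4 and 34.99 CPM (lowest, median, highest) in control, 16.4, 21.3 and 25.2 CPM in PFA and 16.1, 24.9 and 34.9 CPM in OO. The 5 OO + PFA pigs had 17.4, 24.8, 28.0, 30.3 and 47.0 CPM. The groups overlapped, and no contrast of PPARGC1A passed the threshold, the nearest being OO + PFA against PFA (log2 fold change 0.49, interval 0.02 to 0.96, edgeR adjusted p = 0.200).

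PPARGC1B, the PGC-1 coactivator linked to lipid synthesis and mitochondrial genes, was low in the liver, with 6 to 75 counts per library. It was 0.538, 0.863 and 1.78 CPM (lowest, median, highest) in control, 0.301, 0.548 and 1.27 CPM in PFA and 0.331, 1.15 and 2.16 CPM in OO. In OO + PFA it was 1.83, 1.98, 2.27, 2.38 and 3.04 CPM. The 5 OO + PFA pigs lay above all control and all PFA pigs, and overlapped with OO through the highest OO pig. Against control 9% of all genes had groups that did not overlap, and against PFA 6.49%. After the GC correction the OO + PFA pigs (1.70 to 2.82 CPM) overlapped with control (0.856 to 2.10 CPM) and lay above PFA (0.547 to 1.39 CPM). PPARGC1B rose in OO + PFA against PFA by a log2 fold change of 1.69 (SE 0.41, interval 0.84 to 2.54, edgeR adjusted p = 0.0358), or 3.22-fold, and this remained after the GC correction (1.22, SE 0.28, edgeR adjusted p = 0.0195, where 2.47% of genes passed). Within libraries with the same form of sample title the difference in mean log2 CPM was 1.44 (4 against 3 pigs) and 2.37 (1 against 3 pigs). Against control the log2 fold change was 1.29 (SE 0.40, edgeR adjusted p = 0.0603), and with the GC correction 0.77 (adjusted p = 0.0888). The call against PFA was lost when PFA pig 67, 75, 95 or 107, or any OO + PFA pig but the one with the lowest level, was left out (log2 fold change 1.55 to 1.74, adjusted p = 0.0540 to 0.104).

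NCOR1, the nuclear receptor corepressor, was 29.5, 36.0 and 42.0 CPM (lowest, median, highest) in control, 28.3, 37.1 and 57.8 CPM in PFA and 29.6, 37.4 and 61.8 CPM in OO. In OO + PFA it was 48.9, 52.7, 54.1, 59.8 and 69.3 CPM, above all 6 control pigs. NCOR1 rose in OO + PFA against control by a log2 fold change of 0.66 (SE 0.19, interval 0.27 to 1.05, edgeR adjusted p = 0.0432), or 1.58-fold. Within libraries with the same form of title the difference was 0.76 (4 against 4 pigs) and 0.52 (1 against 2 pigs). After the GC correction it was 0.28 (interval 0.04 to 0.51) with an adjusted p of 0.143, and the ranges met, at 42.3 to 54.6 CPM in control and 52.2 to 62.9 CPM in OO + PFA. The call was lost when control pig 71, 85, 92, 100 or 110, PFA pig 67 or 75, or any of the 5 OO + PFA pigs was left out (0.58 to 0.71, adjusted p = 0.0514 to 0.115).

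NCOA1, a coactivator of the p160 family, was 27.3, 32.3 and 35.1 CPM (lowest, median, highest) in control, 27.1, 34.2 and 41.9 CPM in PFA and 25.6, 34.1 and 46.1 CPM in OO. In OO + PFA it was 22.7, 27.2, 27.5, 28.8 and 29.9 CPM, which overlapped with the other diets. The log2 fold change in OO + PFA was -0.33 against OO (interval -0.61 to -0.06, edgeR adjusted p = 0.513) and -0.33 against PFA (edgeR adjusted p = 0.152). After the GC correction these values were -0.24 (interval -0.43 to -0.06) and -0.18 (-0.37 to -0.003).

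In OO against control 0 of 10 members passed an adjusted p of 0.05 in edgeR or DESeq2, where 2.71% of the 13831 genes passed in edgeR, and 2 members (PPARA and RXRB) had an unadjusted p under 0.05, as did 21.4% of all genes. DESeq2 called 7.8% of all genes. Their median log2 fold change was 0.01, and that of all genes was 0.06. No member had groups that did not overlap, against 2.24% of all genes. In OO + PFA against control 1 of 10 members passed in edgeR (NCOR1, with 5.08% of all genes) and 3 of 10 in DESeq2 (NCOR1, PPARGC1B and RXRA, with 9.91% of all genes), and 3 had an unadjusted p under 0.05 (22.6% of all genes). In this contrast 3 of 10 members had groups that did not overlap, against 9% of all genes. After the GC correction these 3 (RXRA, NCOR1 and PPARGC1B) overlapped with control, with log2 fold changes of 0.07, 0.28 and 0.77. Without the correction the median of the members was 0.33 and that of all genes -0.01. Medians of the members after the correction are not given here. In OO + PFA against PFA 1 of 10 passed in edgeR (PPARGC1B, with 1.58% of all genes), 5 had an unadjusted p under 0.05 (23.5% of all genes), and DESeq2 also called PPARGC1B (5.04% of all genes). Here 1 of 10 had groups that did not overlap (6.49% of all genes), and the median without the GC correction was 0.40 against 0.003 for all genes. These contrasts share pigs: OO and OO + PFA were compared with the same 6 control pigs.

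For PFA against control in the liver 0 of 10 members passed in edgeR, as did 0% of all genes, and 0 of the 8 with an adjusted p in DESeq2 (0.311% of all genes). An unadjusted p under 0.05 was seen for 1 member (RXRB, log2 fold change -0.27) and 11% of all genes, and no member had groups that did not overlap (0.983% of all genes). The log2 fold changes lay between -0.40 for PPARGC1B and 0.37 for RXRA, and the widest interval was -0.52 to 1.16 for PPARG. For OO + PFA against OO 0 of 10 passed in either tool (0% of all genes in edgeR, 0.224% in DESeq2), 4 members had an unadjusted p under 0.05 (8.5% of all genes), none had groups that did not overlap (0.774% of all genes) and the log2 fold changes lay between -0.33 for NCOA1 and 1.06 for PPARGC1B. An interaction of OO and PFA, that is, a response to OO that differs with PFA in the feed, passed for 0 of 10 members in edgeR (0% of all genes) and 0 of the 9 with an adjusted p in DESeq2 (1.08% of all genes). Before adjustment 5 members had a p under 0.05 in this test (13.6% of all genes), with interaction terms of 1.46 for PPARGC1B, 0.97 for PPARD, 0.92 for PPARA, 0.37 for RXRB and -0.45 for NCOA1 on the log2 scale; the smallest adjusted p was 0.276. After the GC correction the terms were 1.36 for PPARGC1B, 0.79 for PPARD, 0.83 for PPARA, 0.10 for RXRB and -0.29 for NCOA1, of which those of PPARA and RXRB had intervals that included 0, while PPARGC1A went from 0.58 to 0.76 (interval 0.18 to 1.35); the smallest adjusted p was then 0.109. Across the 4 diets 0 of 10 members passed in edgeR (3.66% of all genes), with PPARGC1B nearest at an adjusted p of 0.0508, 4 members had an unadjusted p under 0.05 (25.2% of all genes), and 1 member (PPARGC1B) passed in DESeq2 (12.8% of all genes).

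**Figure D2:**
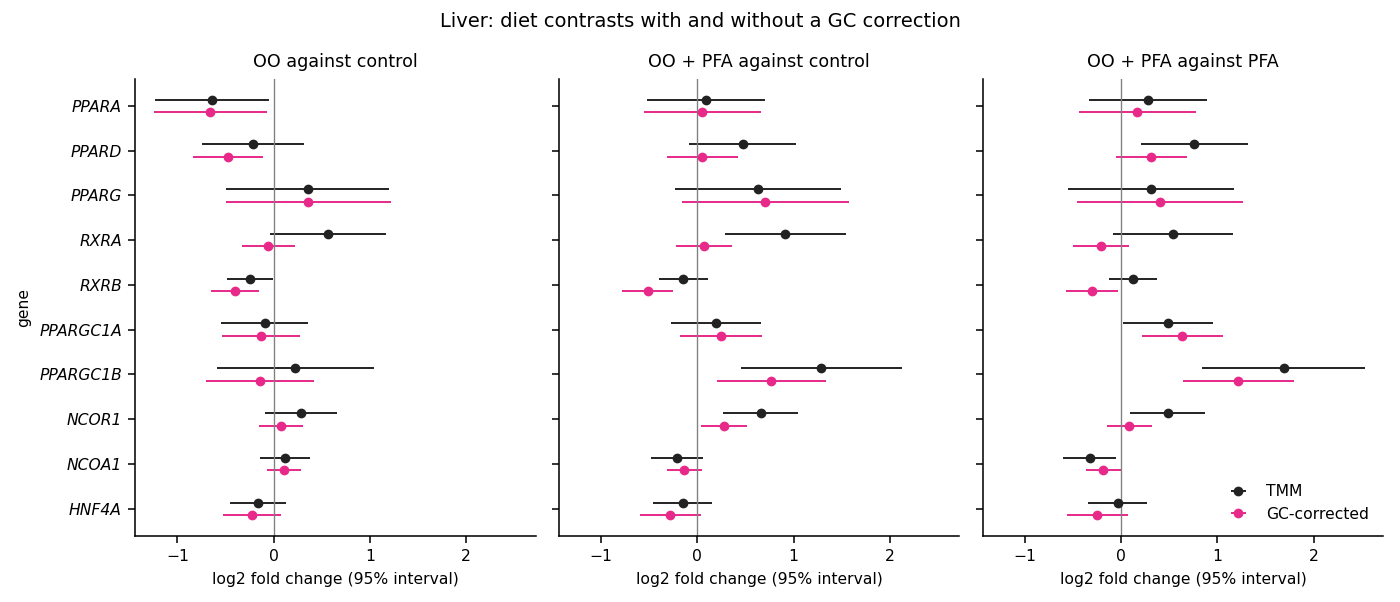
Log2 fold changes (x axis) of the 10 members in the liver with 95% intervals, with TMM scaling (black) and after a GC correction (pink), for 3 contrasts of diets. RXRA in OO + PFA against control goes from 0.91 to 0.07 with the correction, NCOR1 from 0.66 to 0.28 and RXRB from -0.14 to -0.52, while PPARGC1B in OO + PFA against PFA stays above 0 at 1.69 and 1.22.

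The levels of 5 members tracked the GC slope of the library over the 23 liver libraries. The correlation of log2 CPM with the slope was r = 0.85 for PPARGC1B (rho = 0.87), r = 0.85 for RXRA (rho = 0.83), r = 0.84 for NCOR1 (rho = 0.79) and r = 0.79 for PPARD (rho = 0.80), all of high GC content, and r = -0.85 for NCOA1 (rho = -0.84), of low GC content. For these 5 genes the adjusted p over the 10 relations was at most 4e-05 by permutation, for r and for rho, from 100000 permutations. Without pigs 95 and 79, whose slopes were farthest from the median, r was 0.81, 0.88, 0.78, 0.71 and -0.78 in the same order. Within the 14 libraries with titles of the first form r was 0.86, 0.83, 0.81, 0.71 and -0.93, and within the 9 of the second form it was 0.84, 0.89, 0.92, 0.89 and -0.82. RXRB, also of high GC content, had r = 0.48 (adjusted p = 0.0340 by permutation) and rho = 0.45 (adjusted p = 0.0554 by permutation), and r fell to 0.34 without the 2 pigs. For PPARA (r = 0.003, adjusted p = 0.991 by permutation), HNF4A (r = 0.06, adjusted p = 0.868 by permutation), PPARGC1A (r = -0.21, adjusted p = 0.428 by permutation) and PPARG (r = 0.28, adjusted p = 0.272 by permutation) no relation was detected. The members are part of the genes from which the slope was computed, as 10 of 11025. The slope describes how genes of high GC content moved against those of low GC content. Genes at either end therefore follow it in part by construction. The share of all genes that followed it as closely is not given here.

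**Figure D3:**
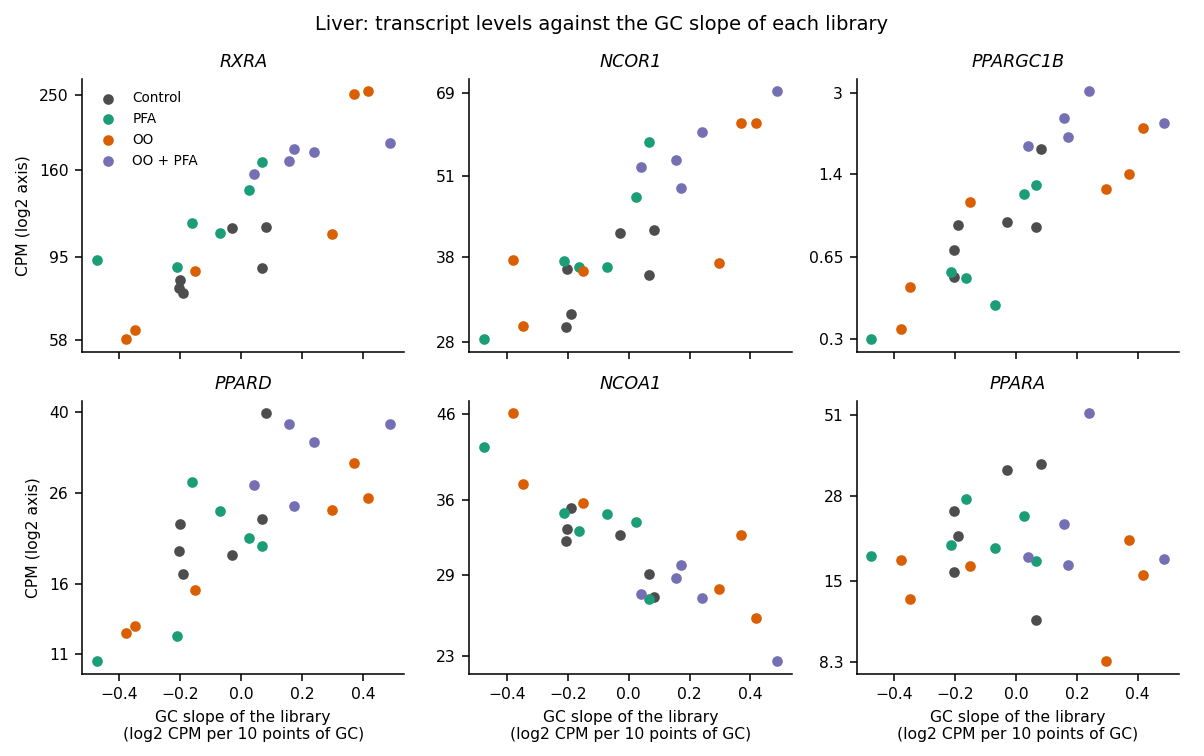
CPM (y axis, log2 scale) of 6 members in the 23 liver libraries against the GC slope of the library (x axis, log2 CPM per 10 percentage points of GC), coloured by diet. RXRA, NCOR1, PPARGC1B and PPARD rise with the slope (r = 0.79 to 0.85), NCOA1 falls with it (r = -0.85) and PPARA shows no relation (r = 0.003); the OO + PFA libraries all have a slope above 0.

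Of 36 listed targets of PPAR-alpha 29 were tested in the liver. The list was chosen with earlier results of these data known and serves only as context for the receptors. In OO against control 17 rose, 0 fell and 12 did not pass (edgeR adjusted p of at most 0.05), where 2.71% of all genes passed. The median log2 fold change of the targets was 0.93 against 0.06 for all genes. CPT1A, which admits fatty acids to mitochondria, was 57.1 to 88.4 CPM in control and 172 to 267 CPM in OO (log2 fold change 1.60, SE 0.15, edgeR adjusted p = 4.93e-07). ACADVL, a mitochondrial acyl-CoA dehydrogenase, was 72.6 to 109 CPM in control and 177 to 371 CPM in OO (1.44, SE 0.16, edgeR adjusted p = 5.34e-06), and PEX11A, a peroxisome division protein, was 12.5 to 21.0 and 25.9 to 49.4 CPM (1.31, SE 0.16, edgeR adjusted p = 3.17e-05). These 3 targets were named for having the smallest p in this contrast. That their groups did not overlap follows largely from that choice (2.24% of all genes did not overlap). In OO + PFA against control 15 of the 29 targets rose and 0 fell (median 0.73), where 5.08% of all genes passed. In OO + PFA against PFA 12 rose and 0 fell (median 0.76), where 1.58% of all genes passed. In PFA against control 0 passed (median -0.04), as did 0% of all genes, and 4 had an unadjusted p under 0.05 (11% of all genes). For the receptor itself the corresponding log2 fold changes were -0.64, 0.09, 0.28 and -0.18. Leaving out each pig in turn left 15 to 20 targets called in OO against control.

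Of 24 other nuclear receptors 23 were tested, and in OO against control 0 rose and 3 fell, where 2.71% of all genes passed, with a median of 0.02. Among the 3 were NR1I3 (CAR, a xenobiotic sensor; log2 fold change -0.57, edgeR adjusted p = 0.0255) and NR1I2 (PXR, a xenobiotic sensor; log2 fold change -0.51, edgeR adjusted p = 0.0473). Leaving out 1 pig left between 1 and 6 of them called, with 1 called without control pig 80 or 85, OO pig 88 or either of the OO pigs with the highest RXRA, and 6 without OO pig 74 or 97. In OO + PFA against control 2 rose and 2 fell, where 5.08% of all genes passed, named here after their values were seen: NR0B2 (SHP, a repressor that binds other nuclear receptors) rose by 2.16 and NR2F6 by 0.87 on the log2 scale, and the log2 fold changes of NR1I2 and NR1I3 were -0.68 and -0.65. Of 22 other coregulators 20 were tested, and in OO against control 0 passed in edgeR (2 with an unadjusted p under 0.05, and 1 passing in DESeq2), with a median of -0.04. With both additions against control 2 of them rose, among them PNRC1, likewise named after its values were seen, by 0.63 on the log2 scale (SE 0.16, edgeR adjusted p = 0.0322).

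Genes whose levels over the 23 liver libraries were most like those of 3 members were taken from 10608 genes with a symbol and at least 1 CPM on average, as a description with libraries and diets shared. For PPARA they were DST (r = 0.82), SFMBT2 (r = 0.78) and FZD5 (r = 0.78), and r was 0.74, 0.73 and 0.76 without the pig in which PPARA was highest. For HNF4A they were EXTL3 (r = 0.63), PTBP1 (r = 0.58) and ARRDC4 (r = 0.58). For PPARGC1A they were ARL14EP (r = 0.80), KLHDC10 (r = 0.78) and SEPSECS (r = 0.76), all of low GC content (36.2% to 43.9%). Among the members themselves the highest correlations were those of RXRA with NCOR1 (r = 0.89) and of PPARGC1B with NCOR1 (r = 0.82), and the lowest that of PPARGC1B with NCOA1 (r = -0.83), which are members that followed the GC slope.

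In the ileum PFA was compared with control in 5 pigs each, and 0 of 10 members passed in edgeR or DESeq2, as did 0% of the 14300 genes in edgeR and 0.028% in DESeq2. No member had an unadjusted p under 0.05 (2.8% of all genes) or groups that did not overlap (0.559% of all genes did not overlap). PPARD, at 35.4, 73.6, 81.5, 115 and 120 CPM in control and 32.0, 45.7, 55.8, 61.0 and 90.2 CPM in PFA, had the largest difference, with a log2 fold change of -0.58 (SE 0.33, interval -1.30 to 0.14, edgeR adjusted p = 0.991). RXRA was 35.6, 48.5, 51.7, 52.0 and 59.3 CPM in control and 31.7, 33.7, 34.95, 43.5 and 69.7 CPM in PFA, with 3 PFA pigs below all control pigs and pig 134 above them (log2 fold change -0.21, interval -0.69 to 0.27). Without pig 134 the log2 fold change of RXRA was -0.46 (edgeR adjusted p = 0.329), and the number of all genes with an unadjusted p under 0.05 went from 401 to 2026, with 0 called in edgeR. It was -0.12 to -0.31 without any other single pig, and 0.05 after the GC correction. PPARA differed least, at 15.4, 16.4, 17.5, 20.4 and 20.5 CPM in control and 14.1, 16.2, 17.5, 20.8 and 21.1 CPM in PFA (-0.007, interval -0.33 to 0.32).

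NCOR1 was 122 to 155 CPM in control ileum and 117 to 157 CPM in PFA ileum, NCOA1 120 to 164 and 120 to 194 CPM, and HNF4A 319 to 437 and 357 to 479 CPM. PPARGC1A was 30.1 to 70.5 and 49.96 to 65.2 CPM, PPARGC1B 5.80 to 16.4 and 7.54 to 15.2 CPM, and RXRB 23.1 to 29.1 and 20.8 to 30.8 CPM. The log2 fold changes of these 6 genes lay between -0.18 and 0.09. PPARG was 2.24 to 3.35 CPM in control and 2.10 to 4.32 CPM in PFA. Its highest value was in pig 95, the ileum library in which the fat cell markers ADIPOQ (1807 counts, against at most 7 in the control libraries), PLIN1 and LEP (17 counts) were also highest; without that pig the log2 fold change of PPARG went from 0.10 to -0.06, and the part of fat cells in it was not tested. The PFA effect did not differ between ileum and liver for any member at an adjusted p of 0.05 (0 of 10 in edgeR and DESeq2, as for 0% of the 14982 genes), and RXRA alone had an unadjusted p under 0.05 (4.93% of all genes), with a difference of -0.67 (interval -1.29 to -0.05), which was -0.24 (-0.59 to 0.11) after the GC correction.

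**Figure D4:**
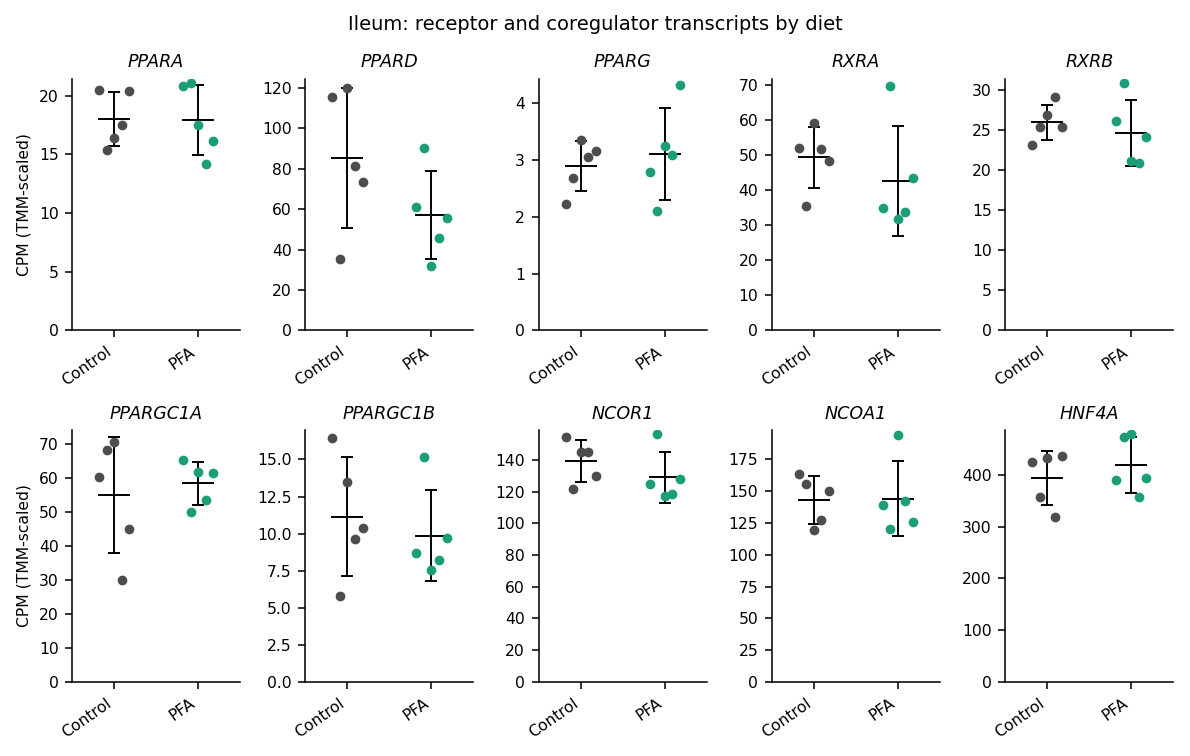
CPM in the ileum of each member in 5 control and 5 PFA pigs, on linear axes from 0; points are pigs, horizontal bars are means and whiskers are SDs. The diets overlap for all 10 genes, with PPARD at 35.4 to 120 CPM in control and 32.0 to 90.2 CPM in PFA.

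The tissues themselves were compared in the 10 pigs that gave both. The ileum and liver libraries carry different forms of sample title, and the study gave a lower bound of RNA quality for liver than for ileum. Tissue therefore cannot be told apart from the handling of each set of libraries. With TMM scaling 9 of 10 members differed (edgeR adjusted p of at most 0.05), where 78.1% of the 14982 genes did (79.2% at an unadjusted p under 0.05), and 6 of 10 had tissues that did not overlap, where 42.6% of all genes did. The SEs and p-values given for the tissues come from a fit that did not pair the libraries of each pig. With the pig as a block the same 9 members were called, with edgeR adjusted p of 3.28e-09 for RXRA and 4.32e-06 for PPARA. These levels depend on the scaling: with library sizes alone the median gene was higher in ileum by 1.17 on the log2 scale, against 0.05 with TMM. In these pigs the 10 most abundant genes held 25.2% to 34.8% of the counts in liver and 12.5% to 16.2% in ileum. The part of these genes in the gap between scalings was not tested. The directions given here name the members for which the scaling mattered.

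RXRA was lower in ileum, with 31.2 ± 8.43 CPM (SD, n = 10) against 152 ± 42.3 CPM in liver (log2 fold change -2.27, SE 0.16, adjusted p = 2.29e-11), and was lower with library sizes alone (-1.16) and after the GC correction (-1.73) as well. PPARA was lower in ileum, at 12.2 ± 1.75 against 30.3 ± 9.42 CPM (-1.31, SE 0.16, adjusted p = 1.36e-07), but with library sizes alone the value was -0.19 (interval -0.51 to 0.14). HNF4A was lower in ileum with TMM (275 ± 34.5 against 535 ± 76.8 CPM, -0.96, SE 0.10, adjusted p = 1.83e-08) and not with library sizes alone (0.16, interval -0.05 to 0.37).

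PPARGC1B and PPARG were higher in ileum in all 10 pigs and under each scaling tried. PPARGC1B had 7.12 ± 2.34 CPM in ileum and 1.23 ± 0.647 CPM in liver (log2 fold change 2.53, SE 0.27, adjusted p = 3.06e-08), and PPARG had 2.04 ± 0.426 and 0.442 ± 0.163 CPM (2.19, SE 0.22, adjusted p = 7.89e-09). NCOA1 was higher in ileum (97.4 ± 15.7 against 48.1 ± 6.86 CPM, 1.02, SE 0.10, adjusted p = 8.62e-09), as were NCOR1 (90.9 ± 10.3 against 55.8 ± 12.6 CPM, 0.71, SE 0.11, adjusted p = 4.12e-06) and PPARD (48.2 ± 21.1 against 30.2 ± 11.6 CPM, 0.66, SE 0.23, adjusted p = 0.0115). These 3 kept that direction under each scaling, and NCOA1 was higher in all 10 pigs, NCOR1 in 9 and PPARD in 6. For RXRB the direction was not settled, at -0.23 (adjusted p = 0.0318) with TMM, 0.89 with library sizes alone and 0.13 after the GC correction, and PPARGC1A was 0.23 (interval -0.07 to 0.52) with TMM, 1.35 with library sizes alone and -0.05 after the GC correction.

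**Figure D5:**
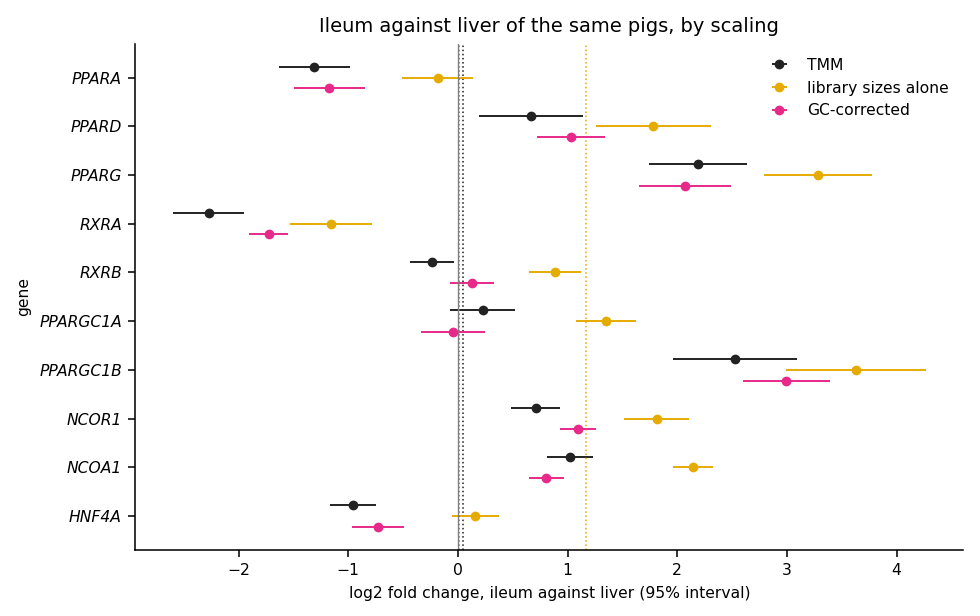
Log2 fold changes of the 10 members in ileum against liver of the same 10 pigs (x axis, 95% intervals) with TMM scaling (black), library sizes alone (yellow) and a GC correction (pink); dotted lines mark the median of all genes, 0.05 with TMM and 1.17 with library sizes alone. RXRA is below 0 and PPARG, PPARGC1B, NCOA1, NCOR1 and PPARD above 0 in all 3, while HNF4A, RXRB and PPARGC1A change sign between them. The intervals are from fits that did not pair the libraries of each pig.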

How the data were processed

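Libraries were made from total RNA with a stranded poly(A) kit. The authors aligned paired reads to Sscrofa11.1 with STAR 2.6.1d, counted them per Ensembl gene with HTSeq and deposited whole-number counts without normalization; the tools are as named in the submitters' processing notes, which also list DESeq2 1.22.2. The annotation release and strand setting are not given in the sources used here. The labels give an age of 28 days, whereas the study's methods describe weaned piglets fed for 28 days. Tallies that name no gene (no feature, ambiguous, multiple alignments) were kept out of library sizes; those without a feature came to 7.54 to 27.9 per 100 pairs on genes. Symbols were found for 14857 genes, and GC content (RefSeq exons, Sscrofa11.1) for 13706, among them all 10 members.

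From the deposited counts, edgeR 4.0.16 (R 4.3.3) was used with TMM scaling, filterByExpr and the quasi-likelihood test, two-sided, with Benjamini-Hochberg adjustment over all genes kept (13831 in liver, 14300 in ileum, 14982 across tissues) and a call where the adjusted p was 0.05 or lower. The liver fit held 23 libraries and 4 diets. Values are CPM with the SD over pigs; a prior of 2 counts went into log2 values. DESeq2 1.42.0, other scaling factors, other filters, a GC correction (lowess per library, span 0.5, on the 11025 liver genes with a GC value), inclusion of pig 77, title form as a covariate, fits of only the 2 diets compared, a replicate block and leaving out each pig were tried. The use of library sizes alone and of genes with a GC value without correction were chosen after seeing the data. The tissues are paired because the same pig gave both: the correlation of deviations from the diet means over genes was -0.18 to 0.46 (median 0.13), above 0.1 in 8 of 10 pigs. The main fit across tissues did not use this pairing, and the replicate block did. Pigs differ between diets, so p-values rest on the spread between pigs of 1 pen per diet.

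The members, gene lists (from known genes) and tests were chosen with earlier results of these data known. All members are named; from each list the genes called in OO against control are named, or the 3 with the smallest p, and for PPARA, HNF4A and PPARGC1A the 3 genes most like them by Pearson's r. In counts simulated for OO + PFA against control on 13831 genes, 57 of the 100 genes changed 2-fold and 89 of the 100 changed 4-fold were called, as were 5 unchanged genes. The simulated counts were independent between genes and held no GC slope. They therefore do not measure calls that follow the slope of the real libraries. A gene with a few counts per library, such as PPARG in liver, is limited by counting error. The 34 columns of the series tables held the same counts as the single files. Correlations used scipy 1.17.1. The values of some listed genes are not reported here.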

Additional observations from a re-analysis of the deposited data

Results flagged for a closer look

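Of 60 groups of pigs examined (10 members in 6 groups), 5 held a pig that stood apart from the rest by Dixon's test, where chance flags about 1 in 20 groups. PPARA was 51.5 CPM in 1 OO + PFA pig, the next pig being at 22.9. In control liver pig 80 was highest for PPARD, at 39.8 CPM against 22.6 in the next pig, and for PPARGC1B, at 1.78 CPM against 0.902. In PFA ileum pig 134 was highest for PPARGC1B, at 15.2 CPM against 9.68, and for NCOR1, at 157 CPM against 128; this library also had the highest GC slope of the ileum, 0.37.

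In the OO + PFA liver library of pig 77, which entered the comparisons only in the alternative with all 24 libraries, 4 members lay above the highest of the control pigs when all 24 libraries were scaled together: RXRA at 239 CPM against 113, PPARGC1B at 3.50 against 1.76, PPARG at 0.770 against 0.370 and NCOR1 at 46.2 against 41.5. The other 4 members that lay outside the control range were below the lowest control pig: PPARA at 6.79 CPM against 11.2, PPARGC1A at 13.2 against 15.4, NCOA1 at 20.7 against 26.95 and HNF4A at 184 against 313. The effect of RNA degradation on these values was not tested.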

How the results depend on the processing

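Across the 4 diets 0 members were called, against 1 with DESeq2, 2 with the GC correction, 1 on genes with a GC value without correction and 1 with all 24 libraries. In OO against control 0 became 1 with the GC correction. For OO + PFA against control 1 became 3 with DESeq2, 0 with DESeq2 size factors in edgeR, 3 with all 24 libraries and 3 with the 2 diets alone. With the GC correction the count stayed at 1, but the member differed. NCOR1 (log2 fold change 0.28) was no longer called, and RXRB (-0.52) was. For OO + PFA against PFA 1 became 0 where at least 10 counts were asked of every library, which removed PPARGC1B. The 3 other nuclear receptors called became 6 with DESeq2 and 5 with the GC correction, and the 0 other coregulators 1 with each. Leaving out 1 pig gave 0 to 1 across diets, 0 to 3 in OO + PFA against control, 0 to 1 against PFA, 1 to 6 nuclear receptors and 0 to 1 coregulators. With the GC correction the log2 fold change turned for RXRA (-0.053) and PPARGC1B (-0.14) in OO against control, for RXRB (-0.12) and HNF4A (-0.059) in OO + PFA against OO, and for RXRA (-0.21) and RXRB (-0.30) in OO + PFA against PFA. In the ileum it turned for PPARA (0.016), RXRA (0.046), RXRB (0.071), PPARGC1B (0.035), NCOR1 (0.054) and NCOA1 (-0.077), and between tissues for RXRB (0.13) and PPARGC1A (-0.047). With all 24 libraries it turned for PPARA in OO + PFA against control (-0.091) and HNF4A in OO + PFA against OO (-0.10). With library sizes alone it turned for HNF4A in OO + PFA against PFA (0.060) and between tissues (0.16), for RXRB between tissues (0.89) and for NCOA1 in ileum (-0.010), which was -0.013 with upper quartile factors and -0.030 on genes with a GC value. The cause was not tested. Leaving out 1 pig turned other values in 28 fits. The ranges in OO against control were -0.37 to 0.0078 for PPARD, -0.23 to 0.016 for PPARGC1A and -0.083 to 0.50 for PPARGC1B. In OO + PFA they were -0.34 to 0.24 for PPARA and -0.040 to 0.33 for PPARGC1A against control, -0.14 to 0.090 for HNF4A against OO, and -0.15 to 0.39 for PPARA and -0.18 to 0.047 for HNF4A against PFA. In the ileum they were -0.073 to 0.067 for PPARA, -0.065 to 0.22 for PPARG, -0.064 to 0.20 for PPARGC1A, -0.39 to 0.0064 for PPARGC1B and -0.12 to 0.068 for NCOA1. Between tissues 9 members were called with the replicate block that pairs the tissues of each pig, as without it, and the block changed no call. PPARG in liver, at 2 to 15 counts, is limited by depth.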
